A study of Xenopus tropicalis with 4 samples.

Results

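Of the 34177 gene identifiers (ids) counted in Xenopus tropicalis animal caps, 11 were nearly silent in both control libraries and expressed in both libraries from caps depleted of the SUV4-20H histone methyltransferases. They were ventx3.2, wnt7b, npy, mir34a, mir449a, mir449b, tmem150b, nipa1, LOC108645812, LOC100498439 and an id without a name, gene5876. The limits were at most 0.5 counts per 1000000 gene reads (CPM) in each control library and at least 2 CPM in each depleted library, where CPM is the number of sense-strand reads of an id divided by all sense-strand reads on genes of that library, on that scale. The 11 ids made up 0.0322% of all ids. With the groups swapped, the same limits were met by 86 ids (0.252%). Because the limits were set on the very levels that are compared, the difference between the groups at these 11 ids is a description and carries no test.

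Animal caps (ACs) are explants of the prospective ectoderm of the blastula, which in culture turn into a mucociliary epidermis. All libraries came from X. tropicalis caps grown to the neurula stage NF16, from embryos injected either with a control morpholino (CoMo, 2 libraries) or with morpholinos against suv4-20h1 and suv4-20h2 together (H1H2Mo, 2 libraries). Morpholinos are antisense oligonucleotides, here of the kind that blocks translation, so the targeted transcripts need not disappear. The knockdown lowers protein and is not a deletion, it was not aimed at a cell type, and each library holds the pooled RNA of many caps. Total RNA was cleaned on columns and depleted of ribosomal RNA. The labels number the libraries as replicates of a group without saying how the replicates were obtained, so p-values measure the spread between these libraries.

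SUV4-20H1 and SUV4-20H2 add the second and the third methyl group to lysine 20 of histone H4, and trimethylated H4K20 is a mark of silent chromatin. Of the genes at hand, the ventx family encodes homeodomain repressors that act downstream of BMP signals in ventral cells of the early embryo, and some of its members help to keep blastula cells uncommitted. The miR-34 and miR-449 microRNAs form one family with a common seed, and in frog epidermis and in mammalian airways they promote the formation of multiciliated cells, in part by targeting the Notch ligand Delta. WNT7B is a secreted ligand of the Wnt pathway, and neuropeptide Y is a peptide transmitter of neurons.

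The libraries held between 17027883 and 47375336 sense-strand reads on genes, and CoMo 2 was the deepest. The upper limit of 0.5 CPM therefore stood for 8.51 reads in CoMo 1 and for 23.7 reads in CoMo 2, and the lower limit of 2 CPM for 51.8 reads in H1H2Mo 1 and 34.2 reads in H1H2Mo 2. No member was at 0 reads in a CoMo library. The members had between 1 and 22 reads in a CoMo library (0.0211 to 0.464 CPM) and between 39 and 162 reads in an H1H2Mo library (2.24 to 8.54 CPM). Off therefore stands for a low level and not for an absence of reads. CPM are not divided by gene length, so the levels below are set beside each other between libraries and not between genes.

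**Figure D1:**
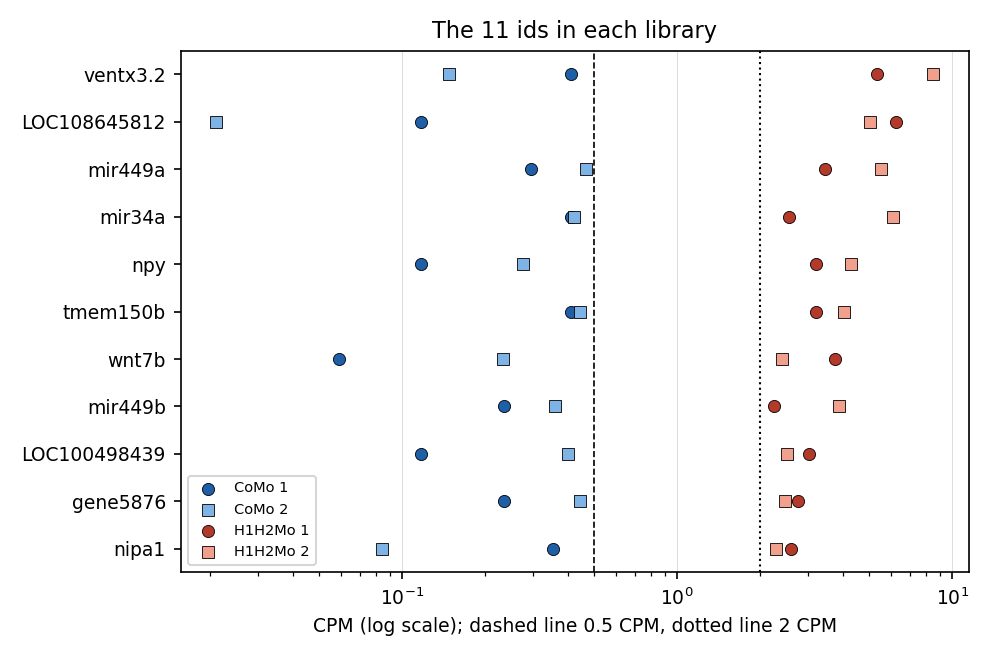
Sense-strand CPM (log axis) of the 11 ids in each of the 4 libraries, circles for replicates 1 and squares for replicates 2, blue for CoMo and red for H1H2Mo, with dashed and dotted lines at the limits of 0.5 and 2 CPM. The CoMo values reach from 0.0211 to 0.464 CPM and the H1H2Mo values from 2.24 to 8.54 CPM, a gap that the limits themselves impose.

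Among transcription factors, ventx3.2 (gene5886, chromosome 7) was the only member. It had 7 reads (0.411 CPM) in CoMo 1, 7 reads (0.148 CPM) in CoMo 2, 138 reads (5.33 CPM) in H1H2Mo 1 and 146 reads (8.54 CPM) in H1H2Mo 2. Both depleted libraries lay far above both controls, and H1H2Mo 2 was higher than H1H2Mo 1 by a ratio of 1.60. The fitted log2 fold change was 4.60. Over the pooled reads of each group, the CPM ratio was 30.4, with an exact 95% interval from 17.8 to 56.3 that covers counting error only.

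The other ventx genes were not chosen by the limits and could be tested, with the quasi-likelihood test of edgeR and p-values adjusted over all 19371 genes tested after Benjamini and Hochberg. In the RefSeq gene order, the genes with a named id within 5 places of ventx3.2 are ventx1.2, ventx2.2, ventx1.1 and ventx2.1. They make this stretch of chromosome 7 a cluster of paralogs. ventx1.2, the nearest, had 1.88 and 0.95 CPM in the controls and 13.3 and 9.36 CPM after depletion. It rose by a log2 fold change of 2.88 (SE 0.52, edgeR adjusted p = 0.0023). ventx1.1 rose from 13.3 and 10.8 CPM to 69.3 and 63.3 CPM, or 2.30 on the log2 scale (SE 0.34, edgeR adjusted p = 0.00059). For both genes the groups did not overlap, and 34.5% of all genes tested were likewise higher in both depleted libraries.

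The remaining pair of the cluster differed less between the groups. ventx2.1 had 39.5 and 25.6 CPM in the controls and 67.9 and 74.7 CPM after depletion, and its log2 fold change of 0.98 missed the threshold (edgeR adjusted p = 0.065). ventx2.2 had 23.4 and 21.3 CPM against 50.1 and 41.1 CPM, with a log2 fold change of 0.86 (edgeR adjusted p = 0.091). All 5 ventx ids thus had higher CPM in both depleted libraries than in both controls, ventx3.2 by the limits. Among all genes tested, this held for 34.5%. Of the 4 ventx ids that the limits did not choose, ventx1.1 and ventx1.2 were past the threshold. Over all genes tested, 5.83% were called higher. Without CoMo 2, the adjusted p was 0.091 for ventx1.2 and 0.050 for ventx1.1, neither of which passes. Reads that map to several places are kept apart from the gene counts (between 6.81% and 8.11% in each library), so reads that paralogs have in common count for none of them.

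The microRNA loci were the largest group of members by role. mir449a (gene26887) and mir449b (gene21638) lie on chromosome 1, and mir34a (gene33594) lies on chromosome 7. The protocol keeps long RNA and has no step for small RNA, so reads on these ids were read as longer transcripts that cross the hairpin, not as the mature microRNA. mir449a had 5 and 22 reads in CoMo (0.294 and 0.464 CPM) and 89 and 94 reads in H1H2Mo (3.44 and 5.50 CPM), a log2 fold change of 3.32. mir449b had 4 and 17 reads in CoMo (0.235 and 0.359 CPM) and 58 and 66 reads in H1H2Mo (2.24 and 3.86 CPM), a log2 fold change of 3.12. Over pooled reads, the CPM ratio was 10.2 (exact 95% interval 6.76 to 15.8) for mir449a and 8.85 (5.54 to 14.8) for mir449b. At both ids H1H2Mo 2 was the highest library.

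RefSeq places mir449a and mir449b inside cdc20b, together with mir449c, the other microRNA of this cluster. mir449c (gene16636) missed the limits because its CoMo level was too high. It had 1.88 and 1.60 CPM in the controls and 7.88 and 16.6 CPM after depletion, and it rose by a log2 fold change of 2.65 (SE 0.51, edgeR adjusted p = 0.0037). This call rests on both controls, since the adjusted p was 0.095 without CoMo 1 and 0.11 without CoMo 2. The host gene cdc20b had 94.3 and 140.6 CPM in the controls and 179.8 and 291.3 CPM after depletion. Its groups did not overlap either, an order found at 34.5% of all genes tested. The log2 fold change of 0.83 was not past the threshold (SE 0.37, edgeR adjusted p = 0.16). With 1 library left out, the log2 fold change of cdc20b reached from 0.43 (without H1H2Mo 2) to 1.19 (without CoMo 2).

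Set against the host, the microRNA ids took a larger share in the depleted caps. For every 1000 reads on cdc20b, the 3 mir449 ids together held 25.5 reads in CoMo 1, 17.3 in CoMo 2, 75.5 in H1H2Mo 1 and 89.2 in H1H2Mo 2. These ratios rest on 41, 115, 351 and 444 reads on the 3 ids, in the same order. Both depleted libraries lay above both controls, and the ratio was given no test because mir449a and mir449b were chosen on these levels. Reads of unspliced cdc20b and reads of a separate microRNA precursor cannot be told apart in these counts.

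On the other sides of the locus, dhx29, which encodes an RNA helicase of translation initiation, had a log2 fold change of 1.06 (edgeR adjusted p = 0.051). gpx8, a glutathione peroxidase gene, had 7.46 and 5.64 CPM in the controls and 4.25 and 4.33 CPM after depletion, with a log2 fold change of -0.77 (edgeR adjusted p = 0.28). With counts from either strand the value of gpx8 was 1.80 (edgeR adjusted p = 0.0034). Reads on the strand opposite to gpx8 stood at 13.7 and 21.2 CPM in the controls and 63.9 and 118 CPM after depletion. These levels were above those of the sense strand in every library. The direction at gpx8 thus depended on whether opposite-strand reads were counted, and its sense reads did not rise. The id named mci-like, on chromosome 1 but not placed in the gene order, was taken by its name for the multiciliated cell regulator Multicilin. It had 56.6 and 78.0 CPM in the controls and 100.3 and 299.0 CPM after depletion. Its log2 fold change was 1.40 (edgeR adjusted p = 0.057), and the 2 depleted libraries differed from each other by more than H1H2Mo 1 differed from CoMo 2. It passed with DESeq2 (adjusted p = 0.019), and without H1H2Mo 2 its edgeR value was 0.39 (adjusted p = 0.43).

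**Figure D2:**
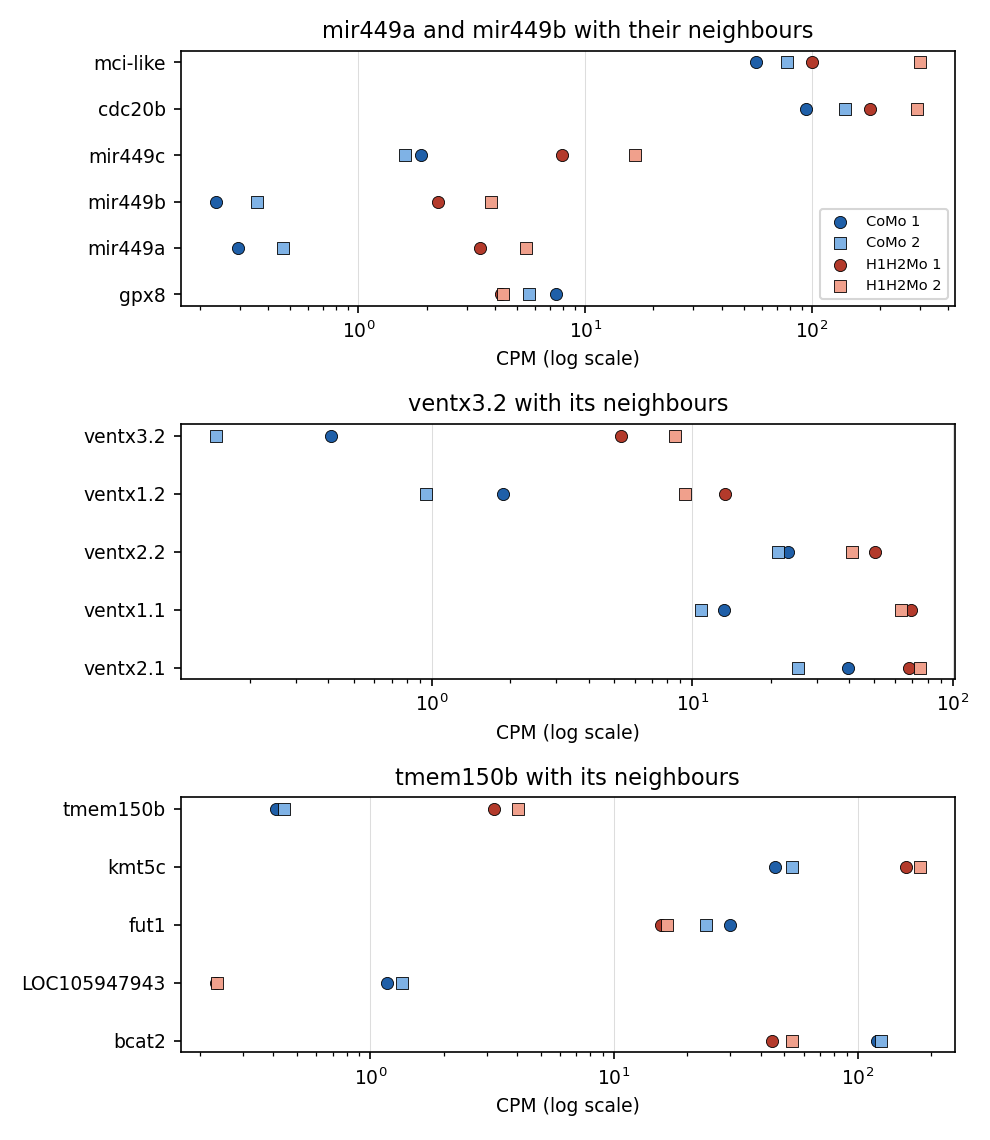
Sense-strand CPM (log axis) of members and of the genes beside them in each of the 4 libraries, symbols as before, for the mir449 locus (top), the ventx cluster (middle) and the surroundings of tmem150b (bottom). The id mci-like in the top panel was not placed in the gene order. All 5 ventx ids and the 3 mir449 ids are higher in both H1H2Mo libraries, whereas around tmem150b the neighbour kmt5c is higher and fut1, LOC105947943 and bcat2 are lower. The limits impose the higher level on ventx3.2, mir449a and mir449b, and 34.5% of all genes tested are higher in both H1H2Mo libraries.

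mir34a, the other member of this microRNA family, is annotated within a long noncoding RNA, LOC116412312. It had 7 and 20 reads in CoMo (0.411 and 0.422 CPM) and 66 and 104 reads in H1H2Mo (2.55 and 6.08 CPM), a log2 fold change of 3.19 and a pooled CPM ratio of 9.44 (exact 95% interval 6.26 to 14.7). The CoMo libraries were almost equal, whereas H1H2Mo 2 exceeded H1H2Mo 1 by a ratio of 2.39, the widest among the members. All 3 microRNA members were thus higher in H1H2Mo 2 than in H1H2Mo 1.

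Across the 11 ids named as microRNAs, of which 10 were tested, the directions were mixed. This group was put together after the values were seen. Of the 7 tested ids that the limits did not choose, 2 were called higher, mir449c and mir428b, and mir205a was called lower. Over all genes tested, 5.83% were called higher and 10.7% lower. That is not a like baseline, since mostly ids with low p-values in the study's tests have a name. mir428b, from a family of early embryonic microRNAs in frogs, had a log2 fold change of 1.85 (edgeR adjusted p = 0.015). mir205a, which in mammals marks stratified epithelia, fell from 35.2 and 44.2 CPM to 3.32 and 10.9 CPM, or -2.65 on the log2 scale (SE 0.50, edgeR adjusted p = 0.0034). Without CoMo 1 and without CoMo 2 in turn, the adjusted p was 0.19 and 0.17 for mir428b and 0.053 and 0.095 for mir205a. mir200a, mir429, mir15c and mir218-1 did not pass the threshold, with log2 fold changes of 0.06, -0.41, 0.38 and -1.76.

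The 2 members that encode secreted signals were wnt7b and npy. wnt7b (gene27900, scaffold_336) had 1 read (0.0587 CPM) in CoMo 1, 11 reads (0.232 CPM) in CoMo 2, 97 reads (3.75 CPM) in H1H2Mo 1 and 41 reads (2.40 CPM) in H1H2Mo 2. The depleted libraries stood apart from the controls, but H1H2Mo 2 reached only 0.640 of H1H2Mo 1. The log2 fold change was 4.0 and the pooled CPM ratio 17.2 (exact 95% interval 9.56 to 34.2). wnt7b also carried a few reads on the opposite strand, 1 and 6 in the CoMo libraries and 0 in both H1H2Mo libraries.

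Other Wnt ligands moved in either direction. Of the 8 other ligand ids with a name that were tested, wnt8a was called higher and wnt10b and wnt9b lower. The group was put together after the values were seen. The shares over all genes tested, 5.83% called higher and 10.7% lower, are again not a like baseline for ids with a name. wnt8a, the early ventrolateral mesoderm Wnt, had 0.998 and 0.464 CPM in the controls, 1.58 CPM in H1H2Mo 1 and 33.6 CPM in H1H2Mo 2. Its log2 fold change of 4.51 (SE 1.05, edgeR adjusted p = 0.011) rested on H1H2Mo 2, without which it was 1.00 (adjusted p = 0.40). wnt10b had a log2 fold change of -4.12 (adjusted p = 0.027) and wnt9b of -2.58 (adjusted p = 0.024) (edgeR). The reads of wnt10b were few, 36 and 37 in CoMo (2.11 and 0.781 CPM) and 4 and 0 in H1H2Mo. With 0 reads in H1H2Mo 2, wnt10b did not pass the filter when either CoMo library was left out. Without CoMo 1 and without CoMo 2 in turn, the adjusted p of wnt9b was 0.24 and 0.11. wnt11b, wnt5b, wnt3a, wnt4 and wnt6 did not pass, with log2 fold changes of 1.12, 0.68, -1.46, -0.28 and -1.07.

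npy (gene24418, chromosome 6) had 2 and 13 reads in CoMo (0.117 and 0.274 CPM) and 83 and 73 reads in H1H2Mo (3.21 and 4.27 CPM). The depleted libraries were close to each other, with a ratio of 1.33 between them. The log2 fold change was 3.93 and the pooled CPM ratio 15.6 (exact 95% interval 9.16 to 28.5). None of the genes with a named id within 5 places of npy moved past the threshold in edgeR, and genes there without a named id were not read. Their log2 fold changes were 0.08 for mpp6 (adjusted p = 0.92), -0.84 for osbpl3 (adjusted p = 0.11), -0.94 for fam221a (adjusted p = 0.091) and -1.49 for LOC105947542 (adjusted p = 0.17).

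The 2 members that encode membrane proteins were tmem150b and nipa1. tmem150b (gene24811, chromosome 7), a multi-pass membrane protein linked to autophagy in human cells, had 7 and 21 reads in CoMo (0.411 and 0.443 CPM) and 83 and 69 reads in H1H2Mo (3.21 and 4.04 CPM). Its log2 fold change was 2.89 and its pooled CPM ratio 8.14 (exact 95% interval 5.41 to 12.7). Libraries of the same group were close to each other, and both CoMo values lay just under the limit.

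The gene next to tmem150b in the RefSeq order is kmt5c, which is suv4-20h2, one of the morpholino targets. kmt5c (gene19824) had 46.0 and 54.0 CPM in the controls and 158.1 and 179.8 CPM after depletion, and it rose by a log2 fold change of 1.59 (SE 0.33, edgeR adjusted p = 0.0055). The other target, suv420h1 (gene4955, chromosome 4), had 105.2 and 114.2 CPM against 95.8 and 86.5 CPM, with a fitted log2 difference of -0.44 (edgeR adjusted p = 0.39). Farther from tmem150b, bcat2, a gene of branched-chain amino acid breakdown, fell from 120.3 and 124.2 CPM to 44.4 and 53.9 CPM, or -1.48 on the log2 scale (edgeR adjusted p = 0.0076). fut1 (-0.91, adjusted p = 0.090) and LOC105947943 (-2.59, adjusted p = 0.059) were lower in both depleted libraries without passing the threshold. The calls depended on having both controls: without CoMo 1 and without CoMo 2 in turn, the adjusted p was 0.18 and 0.097 for kmt5c and 0.11 in each case for bcat2.

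nipa1 (gene18761, chromosome 2), a magnesium transporter gene that is mutated in a human form of spastic paraplegia, had 6 and 4 reads in CoMo (0.352 and 0.0844 CPM) and 67 and 39 reads in H1H2Mo (2.59 and 2.28 CPM). The log2 fold change was 3.47 and the pooled CPM ratio 15.9 (exact 95% interval 8.31 to 34.1). Its H1H2Mo values were among the nearest to the lower limit. Its paralog and neighbour nipa2 had 24.7 and 28.9 CPM in the controls and 46.8 and 73.5 CPM after depletion, with a fitted log2 difference of 1.00 that missed the threshold (edgeR adjusted p = 0.070). oca2, a melanosome transporter gene nearby, fell from 21.8 and 22.5 CPM to 8.35 and 2.63 CPM, or -2.17 on the log2 scale (SE 0.49, edgeR adjusted p = 0.0093). Without CoMo 1 and without CoMo 2 in turn, its adjusted p was 0.13 and 0.14. cyfip1 had a log2 fold change of -0.48 (adjusted p = 0.38).

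The remaining 3 ids have no gene symbol. LOC108645812 (gene33793, chromosome 2) had 2 and 1 reads in CoMo (0.117 and 0.0211 CPM) and 162 and 86 reads in H1H2Mo (6.26 and 5.03 CPM). With a log2 fold change of 6.49 and a pooled CPM ratio of 124 (exact 95% interval 41.9 to 605), it showed the widest separation of the 11 in sense-strand counts. It was also the member with the most reads on the opposite strand, which on the same scale were 9.51 and 9.63 CPM in the controls and 8.15 and 6.44 CPM after depletion. The antisense reads differed little between the groups, whereas the sense reads were nearly lacking in the controls. In the counts that ignore strand its CoMo levels were 0.709 and 1.1 CPM, so it was a member only because of the strand. Its log2 fold change was then 1.95, the lowest of the 11 under that setting. A read that overlaps 2 ids is counted for neither, and the unstranded reads (12 and 52 in CoMo, 143 and 47 in H1H2Mo) were fewer than those of the opposite strand alone (162, 456, 211 and 110).

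LOC100498439 (gene19811, scaffold_56), annotated as protein coding, had 2 and 19 reads in CoMo (0.117 and 0.401 CPM) and 78 and 43 reads in H1H2Mo (3.01 and 2.52 CPM), with a log2 fold change of 3.09. gene5876, for which no name was at hand, had 4 and 21 reads in CoMo (0.235 and 0.443 CPM) and 71 and 42 reads in H1H2Mo (2.74 and 2.46 CPM). Its log2 fold change of 2.69 and pooled CPM ratio of 6.77 (exact 95% interval 4.36 to 10.9) were the lowest of the 11. For both ids the H1H2Mo libraries were close to each other.

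Neither H1H2Mo library was the higher one for all members. 6 were higher in H1H2Mo 2 (ventx3.2, npy, tmem150b and the 3 microRNA ids) and 5 in H1H2Mo 1, with ratios of H1H2Mo 2 to H1H2Mo 1 between 0.640 and 2.39. Apart from LOC108645812 and wnt7b, the members had fewer than 5 opposite-strand reads in every library, so nearly all reads of these 9 lay on the sense strand. All 11 passed the filter for the test over all genes and had an adjusted p under 0.05, where 5.83% of the 19371 genes tested were called higher. That count follows from the limits. Their log2 fold changes had a median of 3.32 and reached from 2.69 to 6.49, while the median of all genes tested was 0.05.

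**Figure D3:**
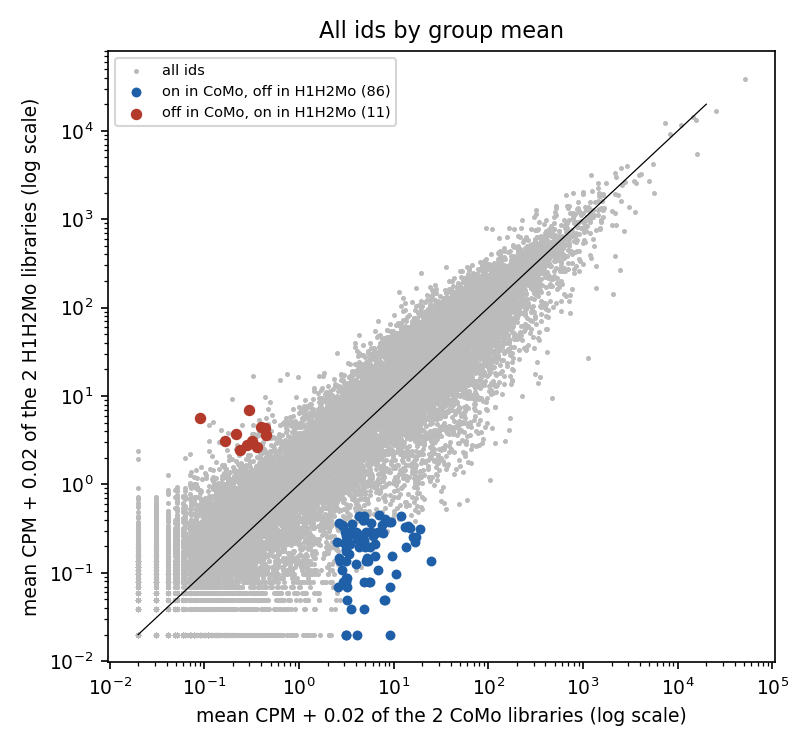
Mean CPM of the 2 H1H2Mo libraries against mean CPM of the 2 CoMo libraries for all ids, with 0.02 CPM added to each and both axes on a log scale. The 11 ids (red) lie above the line of equal levels and the 86 ids of the reverse set (blue) below it, and the blue set reaches farther from the line.

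The reverse set, on in both CoMo and off in both H1H2Mo libraries, served as a baseline. It held 86 ids, of which 82 were tested, and all 82 were called lower, where 10.7% of the genes tested were. Again the count follows from the limits. The median log2 fold change was -4.84, farther from 0 than the 3.32 of the members, and 4 of the 86 ids had 0 reads in both H1H2Mo libraries. Ids with a symbol and high CoMo levels included g6pc-like.1, pp2d1, spata45, smpx, ngf, ucma, c11orf53, dthd1 and igfbpl1. g6pc-like.1, for example, had 19.4 and 30.3 CPM in the controls and 0 and 0.234 CPM after depletion, and ngf, the gene of nerve growth factor, had 18.4 and 13.3 CPM against 0.464 and 0 CPM. Among all genes tested, both H1H2Mo libraries lay above both CoMo libraries for 34.5% and below for 26.3%, the opposite order to the sizes of the 2 sets. These shares were counted on CPM from column sums. The scaling factors of the edgeR fit (TMM) were 0.96 and 0.93 for CoMo and 1.07 and 1.05 for H1H2Mo. That scaling would lower H1H2Mo relative to CoMo, and the shares were not counted on it.

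The limits were also applied to single libraries, which shows how many ids cross them between libraries of the same treatment. Between the CoMo libraries, 16 ids were off in CoMo 1 and on in CoMo 2, and 34 the other way round. Between the H1H2Mo libraries, 41 ids were off in H1H2Mo 1 and on in H1H2Mo 2, and 118 were off in H1H2Mo 2 and on in H1H2Mo 1. From a CoMo to an H1H2Mo library the number was 200 for the pair of replicates 1, 73 for the pair of replicates 2, 91 from CoMo 1 to H1H2Mo 2 and 114 from CoMo 2 to H1H2Mo 1. Of the pairs across treatments, 3 of the 4 thus gave fewer ids than the 118 between the depleted libraries.

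A choice made in 1 pair of libraries could be read in the pair it did not use. Of the 200 ids off in CoMo 1 and on in H1H2Mo 1, 137 (68.5%) were higher in H1H2Mo 2 than in CoMo 2. The 11 members (5.50%), which are among these 137, met both limits there by definition, since the limits hold in all 4 libraries. Among these 200 ids, 81 were off in CoMo 2 and 52 were on in H1H2Mo 2. Of the 73 ids chosen in replicates 2, 48 (65.8%) were higher in H1H2Mo 1 than in CoMo 1, and 11 (15.1%), again the members, met both limits. The shares and medians of both choices include the members. The median log2 ratio in the libraries that were not used, with 0.5 CPM added to both values, was 0.33 for the first choice and 0.39 for the second. Among all 19371 genes tested, H1H2Mo was above CoMo for 53.6% in replicates 2 and for 55.2% in replicates 1. Among the 2641 of them with a mean of 0.5 to 2 CPM over the 4 libraries, these shares were 48.4% and 55.2%.

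The reverse choice was kept more often. Of the 287 ids on in CoMo 1 and off in H1H2Mo 1, 267 (93.0%) were lower in H1H2Mo 2 than in CoMo 2 and 86 (29.97%) met both limits, with a median log2 ratio of -1.65. Of the 189 ids chosen in replicates 2, 170 (89.9%) were lower in replicates 1 and 86 (45.5%) met both limits, with a median of -2.44. The 86 ids are the reverse set itself, so that they met both limits follows from the limits. The shares and medians of both reverse choices include these 86 ids. H1H2Mo was below CoMo for 46.4% of all genes tested in replicates 2 and for 44.8% in replicates 1. For genes with a mean of 0.5 to 2 CPM over the 4 libraries, the shares were 51.6% and 44.8%. With 1 library per group in each reading, none of these shares carries a test.

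**Figure D4:**
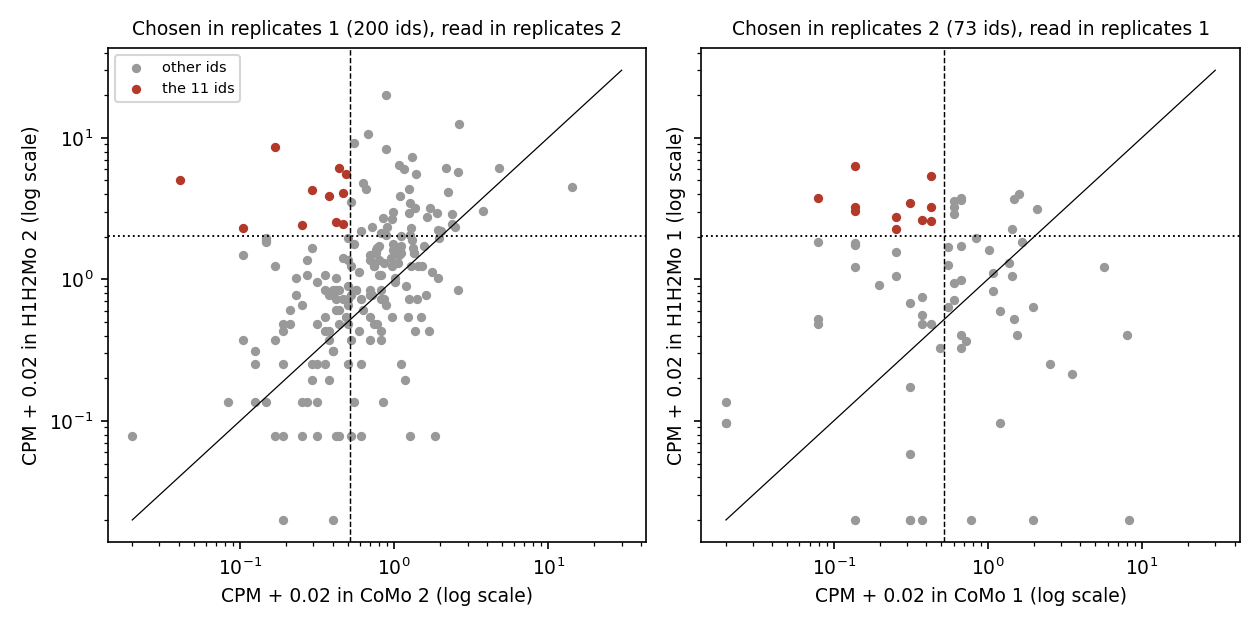
Levels, with 0.02 CPM added and on log axes, of the ids off in CoMo and on in H1H2Mo in 1 pair of replicates, read in the other pair. Of the 200 ids at left and the 73 at right, the 11 members (red) lie in the upper left field between the dashed line at 0.5 CPM and the dotted line at 2 CPM, and the other ids (grey) scatter on both sides of the diagonal line of equal levels. The limits themselves place the members in that field.

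Near the limits, the choice between inside and outside was narrow. Inside, the highest CoMo values were 0.464 CPM for mir449a and 0.443 CPM for tmem150b and gene5876, and the lowest H1H2Mo values were 2.24 CPM for mir449b, 2.28 CPM for nipa1 and 2.40 CPM for wnt7b. Just outside on the CoMo side stood tapbpl with 0.507 CPM, clca1 with 0.528 CPM and dchs2 with 0.587 CPM, whose lowest H1H2Mo values were 3.51, 8.12 and 3.28 CPM. Just outside on the H1H2Mo side stood LOC100493937 and LOC105945966, each with 1.93 CPM, and gene33451 with 1.89 CPM. With the limits at 1 and 2 CPM, 55 ids were chosen, and with 0.25 and 4 CPM only LOC108645812 was left.

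Around the members that could be placed in the RefSeq gene order, 20 other ids with a name lay within 5 places, and 19 of them were tested. Of these, 4 were called higher (ventx1.1, ventx1.2, mir449c and kmt5c) and 2 lower (bcat2 and oca2). Among all genes tested, 5.83% were called higher and 10.7% lower. Only ids with a name could be placed, mostly those with low p-values in the study's tests, so these shares are not a like baseline. The 4 higher neighbours belong to 3 places in the genome and 2 of them are paralogs of the ventx cluster, so they are not independent of each other. By chromosome, 3 members lie on chromosome 7, 2 each on chromosomes 1 and 2, and 1 on chromosome 6. Chromosome 7 holds 6.96% of the 6622 ids with a name. Of the 9 members found in the part of the authors' gene list used here, none carried a flag for nuclear, cell cycle, cilium or cytoskeleton genes, which 29.4% of the 1998 listed ids carried. The study took its gene annotation from mouse genes, so an id without a converted mouse gene would carry no flag. The lack of a flag therefore does not show that a member lacks such a role.

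Markers of cell types and stages were read beside the members, since the members include early embryonic genes and regulators of multiciliated cells. In bulk RNA, fewer cells of a type and less RNA per cell cannot be told apart. Only ids with a name, mostly those with low p-values in the study's tests, could enter the lists. Over all genes tested, 5.83% were called higher and 10.7% lower, which is not a like baseline for such lists. Of the genes known from blastula and gastrula stages, 8 were tested beside the member ventx3.2, and 5 of them were called higher and none lower. They were ventx1.1, ventx1.2 and the 3 pou5f3 genes, the frog counterparts of mammalian Oct4. pou5f3.1 had 15.5 and 23.6 CPM in the controls and 315.6 and 170.9 CPM after depletion, with a fitted log2 difference of 3.46 (edgeR adjusted p = 0.00020). pou5f3.2 rose by 2.46 (adjusted p = 0.0012) and pou5f3.3 by 1.62 (adjusted p = 0.0083). lin28a was not called, with a log2 fold change of -0.58. The summed level of the list was 374.6 to 395.9 CPM in the controls and 638.7 to 793.1 CPM in H1H2Mo.

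Most markers of differentiated epidermal cells were lower after depletion. The multiciliated list of 6 genes had 7 tested ids, because cfap58 stands under more than 1 id, and 6 of the ids fell. Its summed level was 746.9 to 882.3 CPM in the controls and 162.8 to 285.9 CPM in H1H2Mo. This is opposite in direction to mir449a, mir449b and mir34a. The exception was foxj1, whose log2 fold change of -0.88 did not pass. In the ionocyte list 3 of 5 fell, in the list of small secretory cells 3 of 3, and among goblet and outer cell genes 2 of 3. otog was the exception there, with 842.5 and 937.6 CPM in the controls, 2434 CPM in H1H2Mo 1 and 670.2 CPM in H1H2Mo 2 (log2 fold change 0.62, edgeR adjusted p = 0.46). The summed level of that list was 1317 to 1642 CPM in CoMo, 2599 CPM in H1H2Mo 1 and 747.4 CPM in H1H2Mo 2. The basal gene tp63 fell as well (log2 fold change -2.01). All these lists were well expressed in CoMo.

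Markers of tissues outside the epidermis did not move in a single direction. Of the 7 mesendoderm genes, 2 were called higher (vegt, 2.26, and foxa4, 3.92), and the summed level was 10.8 to 17.1 CPM in CoMo against 98.7 CPM in H1H2Mo 1 and 48.3 CPM in H1H2Mo 2. vegt made up most of that sum in every library (CoMo 1: 7.58, CoMo 2: 11.4, H1H2Mo 1: 61.7, H1H2Mo 2: 41.5 CPM). sox17a, sox17b.2, mix1, mixer and eomes were not called. Within the list, only sox17a was lower in H1H2Mo 2 (3.34 CPM) than in CoMo 2 (4.07 CPM). foxa4 stood at 10.1 CPM in H1H2Mo 1, but its 0.644 CPM in H1H2Mo 2 was close to CoMo 1 (0.587 CPM, CoMo 2: 0.127 CPM). Of the 10 germ line and oocyte genes, 4 were called higher (zp2, zp4, tdrd1 and velo1), with a summed level of 206.5 to 347.2 CPM in the controls and 633.9 to 730.0 CPM in H1H2Mo. In the neural list, read beside npy, a gene of neurons, 2 of 4 fell (ncam1 and pou4f1.2). The others, gsx2 (0.66) and pou3f2 (0.45), were not called. The summed level was 14.2 to 41.3 CPM in the controls and 4.33 to 6.38 CPM in H1H2Mo. Most of the sum in the controls was ncam1, with 36.9 and 8.59 CPM there and 1.16 and 2.57 CPM in H1H2Mo. Among blood and immune genes, ptprc was called higher, with 1.55 CPM in H1H2Mo 1 and 12.1 CPM in H1H2Mo 2, and irf8 lower. The notochord genes not (2.30) and foxa4 and the retinal gene sag (3.98) were called higher, tnni2, the only muscle gene tested, was not called, and the muscle gene myog was at 0 in all libraries. The part of these markers in the levels of the 11 members was not tested.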

How the data were processed

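The data were RNA-seq libraries of NF16 ACs from X. tropicalis, 2 CoMo and 2 H1H2Mo, grouped by the morpholino in the sample labels. The authors aligned paired-end reads to the X. tropicalis genome with STAR 2.7.1a, let it count the reads on each gene, and deposited the raw counts in unstranded, forward and reverse versions. Reverse-strand counts were used, which held 97.5% to 98.18% of the stranded reads. The row of reads without a gene id (0.0675% to 0.242% of gene reads) was left out. Depth ranged from 17027883 to 47375336 reads on genes, and a floor of 3 reads stood for 0.0633 to 0.176 CPM.

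CPM were computed from column sums. The members and the gene lists were chosen with earlier results of these data known. Names and chromosomes came from the supplementary tables of the study, which name 6622 of the 34177 ids, mostly those with low p-values in its tests. The fold changes and p-values in those tables were not used, but only ids with a name could enter the gene lists or be placed as neighbours. RefSeq genes of a later assembly gave gene order and biotype only, with 9 of the 11 members matched and no coordinates used.

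Differential expression was tested with edgeR 4.0.16 in R 4.3.3 (TMM, quasi-likelihood test, Benjamini-Hochberg adjusted p under 0.05) on genes detected by 1 or more reads in 75% of samples (3 of 4), the filter of the study's methods. Intervals of pooled ratios are exact (95%, SciPy 1.17.1) and cover counting error only. Named were all members, the 3 ids nearest to each limit on either side, the 10 ids of the reverse set with a symbol and the highest CoMo CPM, list genes and both targets. One item that this choice covers is not reported here. Neighbours within 5 places and the Wnt and microRNA groups were added after values were seen. Alternatives were DESeq2 1.42.0, RLE normalization, other filters and limits, unstranded counts, equal depth, the replicate number as a block, and leaving out each library. Same-numbered libraries did not deviate together (correlation -0.21 over 12535 genes averaging 50 counts or more). With 2 libraries per group, a single correlation cannot decide whether the numbers pair the samples.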

Additional observations from a re-analysis of the deposited data

Results flagged for a closer look

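Reads that were assigned to a row without a gene id, which no comparison uses, were more frequent in the depleted caps. They amounted to 2424 CPM, relative to gene reads, in H1H2Mo 1 and 1887 CPM in H1H2Mo 2, against 1543 CPM in CoMo 1 and 675.1 CPM in CoMo 2. This row was looked at because both H1H2Mo values lie above both CoMo values, an order found at 34.5% of all genes tested. CoMo 1 was nearer to H1H2Mo 2 than to CoMo 2. The difference was not tested.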

How the results depend on the processing

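The number of ids off in CoMo and on in H1H2Mo (11) depended on the limits: it was 1 with 0.25 and 4 CPM, 55 with 1 and 2 CPM, 66 with 0.5 and 1 CPM, and 1 with at most 3 reads in each CoMo library. For the reverse set (86) the same settings gave 12, 195, 221 and 25. Leaving out 1 library gave 20 to 81 ids (reverse set 95 to 199), since fewer conditions then had to be met. Unstranded counts gave 14 ids without LOC108645812, TMM library sizes 10 without mir449a, and equal depth 12 with all 11 kept. Genes called higher in H1H2Mo (1130) numbered 372 at an adjusted p under 0.01, 2013 with crossed replicate numbers as a block, an alternative added after seeing the data, and 43 to 1711 with 1 library left out. DESeq2 called 1550 genes higher. Genes called lower (2066) numbered 1171 and, with 1 library left out, 498 to 2271. With the replicate number as a block, 1141 genes were called higher and 2139 lower, and all 11 members were called. Of the members, 6 had an edgeR adjusted p under 0.01, and most members were no longer called with either CoMo library left out. The limits chose the members on these same levels, so counts of members called are a description and carry no test. With 1 library left out, the lone library of a group is assumed to vary like the other group. The median log2 fold change of the members (3.32) was 3.19 with unstranded counts and 3.16 to 3.77 with 1 library left out. gpx8 reversed with unstranded counts, at 1.80, which also hold its opposite-strand reads. Of the genes given as not passing, DESeq2 called ventx2.1 (adjusted p = 0.045), nipa2 (0.045), dhx29 (0.025) and mci-like (0.019). mci-like also passed with RLE normalization (0.044), unstranded counts (0.045), no filter (0.0018), the replicate block (0.023) and without H1H2Mo 1 (0.00067). The cause of these changes was not tested, except where fewer conditions or samples set them.

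With 2 libraries per group, the spread between libraries is poorly known. At the 17027883 reads of CoMo 1, the floor of 3 reads equals 0.176 CPM, so a level under that cannot be told from 0 in CoMo 1. In CoMo 2, the deepest library, the floor was 0.0633 CPM.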
